A study of Mus musculus with 30 samples.

Results

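AtT-20 cells, which derive from a corticotrope tumour of the mouse pituitary, were compared after 24 h of corticotropin-releasing hormone (CRH) with untreated cells of the same age in culture. The 24 h comparison consists of the 6 arrays whose titles name that time point, out of 30 arrays in the series, and 14369 spots were measured on it. On each array, a 2-colour spotted cDNA slide, RNA of treated and of untreated cells was hybridised together, and the value of a spot is log2 of its CRH signal over its untreated signal. Replicates 1 to 3 carried the RNA of treated cells in the green dye Cy3, and replicates 4 to 6 carried it in the red dye Cy5.

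Both groups were grown in medium with serum and then deprived of serum before treatment. The treated cells received 100 nM human/rat CRH in serum-free medium, and the untreated cells had their medium changed in the same way. No genetic change was made to the cells. A single tumour line stands for corticotropes only in part. The other 24 arrays hold the same comparison at 1, 3, 6 and 12 h. All 6 arrays of a time point were made from 1 pair of RNA extracts by the study's methods. Their SD (n = 6 arrays) thus measures hybridisation, scanning and the difference between the dye orientations, and not the spread between cultures. No test of CRH against no treatment can therefore be made at 24 h alone.

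CRH binds the receptor CRHR1 on corticotropes, which couples to Gs and raises cAMP. Protein kinase A then phosphorylates CREB and feeds into MAP kinase signalling, and transcription of Pomc, the precursor of ACTH, rises. Immediate early genes such as those of the Fos family are known to peak within the first hours, so that a day of CRH is a late and prolonged exposure.

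The markers of the corticotrope lineage were checked by whether their spots lay above the dim-spot limit, the lowest 10% of all spots in a channel, on all 6 arrays. Of 8 corticotrope markers with a spot, 7 lay above it, among them Pomc, Tbx19, Neurod1, Pitx1 and Cpe. The exception was the spot of Chga. No spot was matched to Crhr1 or Pcsk1. This check is weak. All 8 leukocyte markers and 4 of 6 fibroblast markers lay above the same limit, as did 18.1% of the 1170 empty spots, against 81.3% of gene spots. Of 7 hormones and regulators of other pituitary lineages, 1 was spotted, growth hormone, and it lay above the limit too.

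Few spots showed a sizeable ratio at 24 h. A mean of at least 1.5-fold, which is 0.585 on the log2 scale, together with 1 sign over the 6 arrays (the size rule) was met by 26 of 14369 spots, or 0.181%. Of these 16 were higher after CRH (0.111%) and 10 were lower (0.0696%). At 1, 3, 6 and 12 h the same rule was met by 29, 21, 5 and 22 spots (0.202%, 0.146%, 0.0348% and 0.153%). Lower spots were rarer at the times between, with 3 at 3 h, 0 at 6 h and 4 at 12 h, against 14 at 1 h. A mean of 1.5-fold whatever the signs was found in 32 spots (0.223%), and 1 sign over the 6 arrays at any size in 654 spots (4.55%). The median spot had an absolute mean ratio of 0.10 and an SD of 0.34 between the 6 arrays. The counts moved with single arrays. Without replicate 4 or 5 there were 26 or 25 higher spots, and without replicate 3 there were 17 lower spots.

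The dye left a clear mark on single arrays. Across all spots, arrays of the same dye orientation correlated at r from 0.39 to 0.58, and arrays of opposite orientation at r from -0.40 to -0.28, after each ratio had been turned to CRH over untreated. The means of the 2 orientations correlated at -0.53, and had the same sign in 31.7% of spots. The directions follow the dyes given in the labels, and the mean over 3 and 3 arrays cancels a dye effect. Of the 26 spots past the size rule, 6 reached 1.5-fold in both orientations separately.

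**Figure D1:**
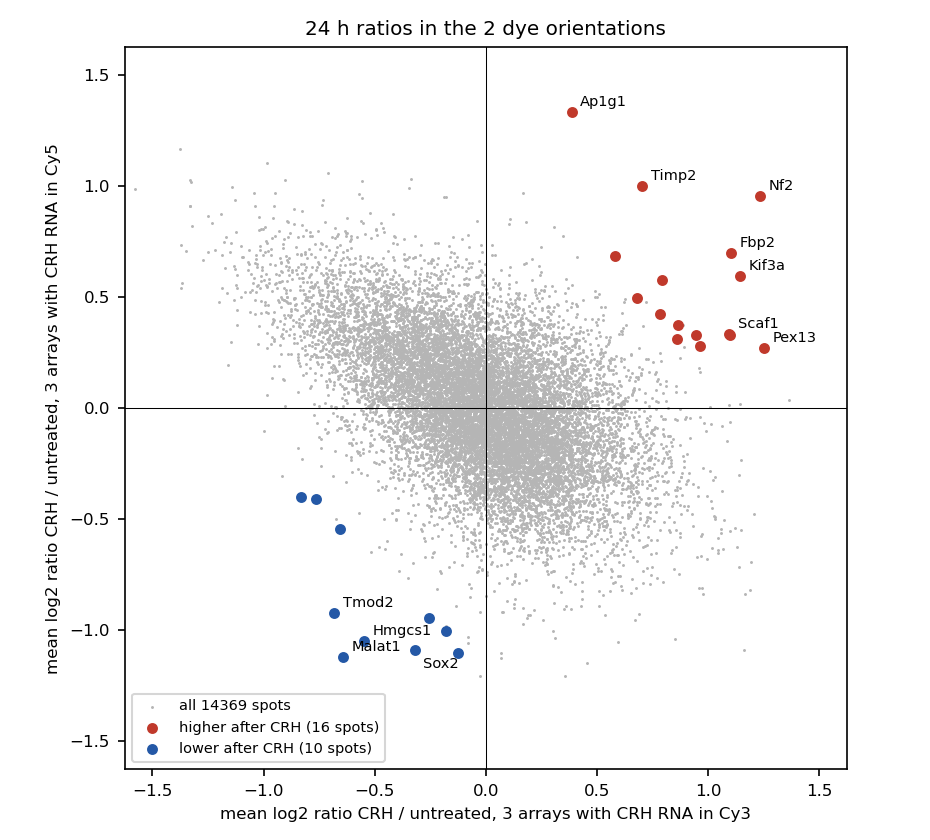
Mean log2 ratio (CRH over untreated) at 24 h on the 3 arrays with CRH RNA in Cy3 (horizontal) and in Cy5 (vertical), 1 point a spot. The grey cloud of 14369 spots slopes downward (r of -0.53 across spots), while the 16 higher spots lie in the upper right and the 10 lower spots in the lower left.

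Nf2 had the highest ratio of all spots. It encodes merlin, a tumour suppressor that links membrane proteins to the actin cytoskeleton and restrains growth through the Hippo pathway. Its 6 arrays ranged from 0.70 to 1.28 with a median of 1.18, and the mean was 1.09 ± 0.22 (SD, n = 6 arrays), or 2.14-fold. No array came near 0, and the 2 orientations gave 1.24 and 0.95. At 1, 3, 6 and 12 h the same spot stood at -0.18, -0.49, -0.15 and 0.14, so the high ratio was seen at 24 h and not before. A second Nf2 spot was too dim at other time points to enter the main set, but was above the limit on the 6 arrays of 24 h. Without removal of dim spots it stood at 0.99 ± 0.41 (SD, n = 6 arrays), above 0 on 6 of 6 arrays.

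A group of spots shared this course, with values below 0 at 1 to 6 h and a high ratio at 24 h. Pex13, a peroxisomal membrane protein of the docking complex for protein import, ranged over the arrays from 0.10 to 1.44 with a median of 0.70. Its mean was 0.76 ± 0.57 (SD, n = 6 arrays), after -0.13, -0.50, -0.24 and 0.02 at the 4 earlier times. The 3 arrays with CRH RNA in Cy3 lay between 0.98 and 1.44, all above the other 3, which lay between 0.10 and 0.42.

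Scaf1, a partner of the RNA polymerase II tail that is spotted as a hypothetical protein, gave 0.15 to 1.24 with a median of 0.71. Its mean was 0.71 ± 0.44 (SD, n = 6 arrays), and its earlier values lay between -0.28 and 0.0069. Cd3e, the epsilon chain of CD3 on T cells, gave 0.36 to 0.87 with a median of 0.55 and a mean of 0.60 ± 0.22 (SD, n = 6 arrays). It had stood at -0.17, -0.38, -0.28 and 0.08 before. At 24 h its arrays with CRH RNA in Cy3 averaged 0.78 and the others averaged 0.42. Cd3e was the only one of 10 measured genes on the T cell and leukocyte list past the size rule; Lck, the T cell kinase, was at -0.07.

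Kif3a, a motor subunit of the kinesin that builds cilia, was measured on a pair of spots that did not behave alike. The first ranged from 0.46 to 1.22 with a median of 0.88, and its mean was 0.87 ± 0.32 (SD, n = 6 arrays). At the 4 earlier times it was between -0.37 and -0.19. At 24 h its arrays with CRH RNA in Cy3 averaged 1.15 and the others averaged 0.59. The second gave 0.02 ± 0.36 (SD, n = 6 arrays) at 24 h and 0.90 at 1 h. Both spots carry the name of an unclassified RIKEN clone in the files and owe the symbol to the study's own list, so the assignment to Kif3a is uncertain.

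Gnao1, the alpha subunit of the inhibitory G protein Go, was spotted 4 times. The spot past the rule ranged from 0.10 to 1.16, with a mean of 0.62 ± 0.43 (SD, n = 6 arrays), and was at the scanner limit on 1 array. The other Gnao1 spots gave 0.40, 0.02 and -0.42. The 4 spots thus spread over both signs, and the gene as a whole has no settled direction.

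Spots of a different course were high for most of the day. Ttyh1, a chloride channel of the tweety family found in neural cells, ranged over the arrays from 0.38 to 1.26 with a median of 0.67, and the mean was 0.69 ± 0.32 (SD, n = 6 arrays). It had been at 0.50, 0.49 and 0.66 at 3, 6 and 12 h, and at -0.03 at 1 h. Another Ttyh1 spot followed the same course, with 0.58, 0.59 and 0.76 at 3, 6 and 12 h and 0.52 ± 0.65 (SD, n = 6 arrays) at 24 h, but was above 0 on 3 of 6 arrays, those with CRH RNA in Cy3. The last Ttyh1 spot stood at 0.08. An unnamed expressed sequence tag, chosen here after its values were seen, was past the size rule at 3, 6, 12 and 24 h (0.89, 0.81, 0.70 and 0.64).

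Fbp2, the muscle form of fructose bisphosphatase in gluconeogenesis, was above 0 at all 5 times and highest at 24 h. Its arrays ranged from 0.41 to 1.43 with a median of 0.94, and its mean was 0.90 ± 0.37 (SD, n = 6 arrays), after 0.41, 0.12, 0.26 and 0.51. Ap1g1, the gamma subunit of the clathrin adaptor of the trans-Golgi network, was less steady. Its arrays ran from 0.16 to 1.67 with a median of 0.81, and its mean was 0.86 ± 0.63 (SD, n = 6 arrays). The 3 arrays with CRH RNA in Cy5 averaged 1.33 and the other 3 averaged 0.39.

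Timp2, an inhibitor of matrix metalloproteinases, had a mean of 0.85 ± 0.45 (SD, n = 6 arrays) and a range of 0.41 to 1.68. One array lay far above the other 5. Its other 2 measured spots gave 0.45 and 0.18, also above 0 but not past the rule. A dimmer Timp2 spot gave 0.01 without removal of dim spots. Hspa12a, of the heat shock protein family, gave 0.62 ± 0.36 (SD, n = 6 arrays) on one spot, 0.63 ± 0.65 on another that was above 0 on 5 of 6 arrays, and -0.13 on one more. Rhoc, a small GTPase of the actin cytoskeleton, gave 0.59 ± 0.33 on one spot and 0.03 ± 0.29 on its second (SD, n = 6 arrays). The vesicle protein Vat1, nearest the threshold and named here after its values were seen, stood at 0.59 ± 0.42 and 0.20 ± 0.55 (SD, n = 6 arrays). The remaining 2 higher spots are unnamed tags, at 0.72 and 0.63.

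**Figure D2:**
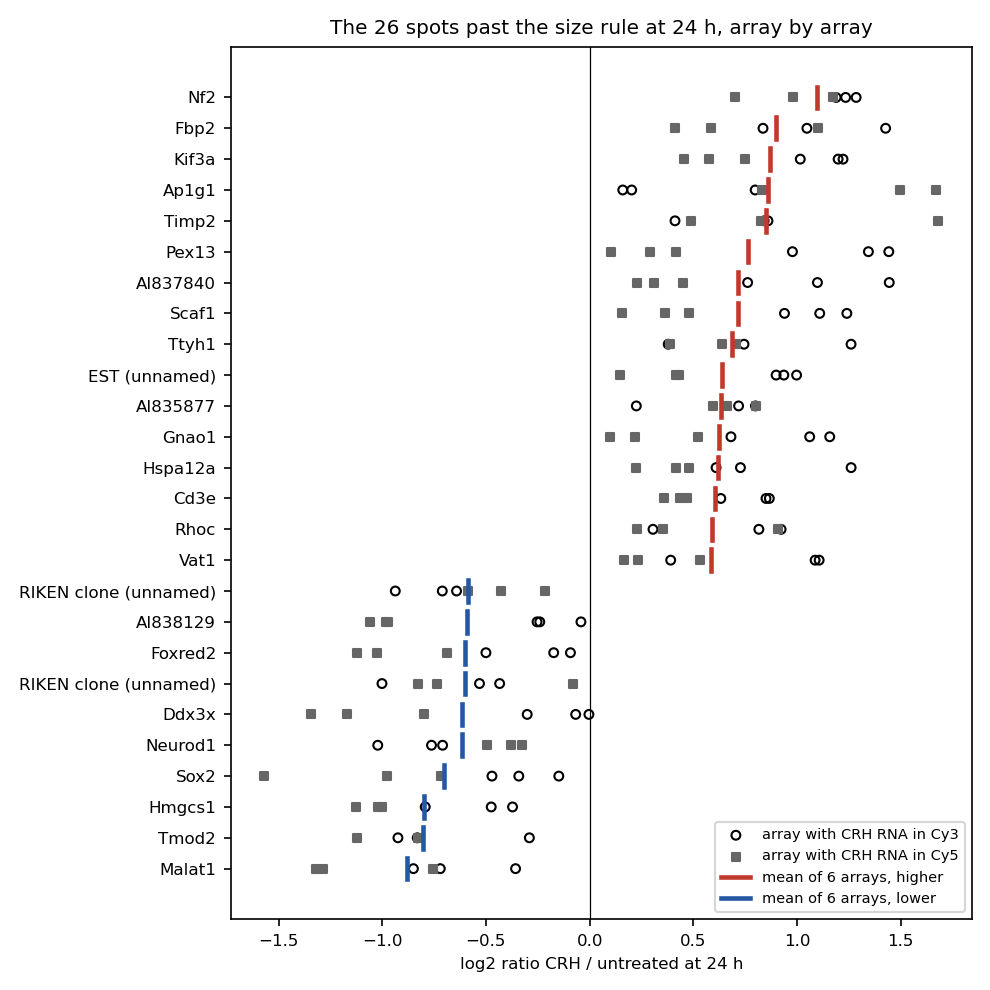
Log2 ratio (CRH over untreated) on each of the 6 arrays of 24 h for the 26 spots past the size rule, with open circles for CRH RNA in Cy3, squares for CRH RNA in Cy5 and a bar for the mean. Nf2 lies between 0.70 and 1.28 on every array, while Pex13, Scaf1 and Ddx3x split by dye orientation.

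Among the lower spots, Hmgcs1 was the one with a clear pathway role. It encodes the cytosolic synthase that makes HMG-CoA, an early intermediate of cholesterol synthesis. Its arrays ranged from -1.12 to -0.37 with a median of -0.90, and the mean was -0.80 ± 0.31 (SD, n = 6 arrays), a 1.74-fold lower level after CRH. All 6 arrays were below 0. At 6 and 12 h the same spot had been above 0, at 0.46 and 0.37. The other Hmgcs1 spot ran in parallel, with 0.41 and 0.21 at 6 and 12 h and -0.57 ± 0.55 (SD, n = 6 arrays) at 24 h. On that spot the 3 arrays with CRH RNA in Cy5 averaged -1.06 and the other 3 averaged -0.08.

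Neurod1, a basic helix-loop-helix factor that activates Pomc in corticotropes, had a mean below 0 on both of its spots. The first ranged from -1.02 to -0.32 with a median of -0.60, and its mean was -0.62 ± 0.26 (SD, n = 6 arrays). Its arrays with CRH RNA in Cy3 averaged -0.83 and the others averaged -0.40. The second gave -0.52 ± 0.64 (SD, n = 6 arrays), below 0 on 3 of 6 arrays, those with CRH RNA in Cy5. On that spot these arrays averaged -1.10 and the other 3 averaged 0.07. Both spots were below 0 at 3, 6 and 12 h as well (-0.55, -0.20 and -0.43 on the first, -0.73, -0.46 and -0.53 on the second) and above 0 at 1 h, at 0.22 and 0.27. Pomc itself stood at 0.18 ± 0.23 (SD, n = 6 arrays) at 24 h, with arrays from -0.12 to 0.45. It was above 0 on 4 of 6 arrays and not past the rule, after -0.18, 0.39, -0.02 and 0.16.

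Malat1 had the lowest mean of the 24 h arrays. It is a long noncoding RNA of nuclear speckles, where splicing factors gather. The spot that the study assigns to it ranged from -1.32 to -0.36 with a median of -0.80, and its mean was -0.88 ± 0.37 (SD, n = 6 arrays). It is listed in the files as a receptor activity modifying protein, so its identity rests on the study's list. A spot that reaches Malat1 through a RIKEN clone synonym gave -0.03 ± 0.27 (SD, n = 6 arrays). Dimmer spots of the same clone gave -0.24 and 0.05 without removal of dim spots. The 2 routes to the gene gave different values.

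Tmod2, a neuronal protein that caps the slow-growing end of actin filaments, had a mean of -0.80 ± 0.28 (SD, n = 6 arrays) over a range of -1.12 to -0.29. It had been at -0.48 at 3 h and near 0 at 1 and 12 h. Sox2, a transcription factor of pituitary progenitors, ranged from -1.57 to -0.15 with a mean of -0.70 ± 0.51 (SD, n = 6 arrays). It was below 0 at all 5 times. The other Sox2 spot was too dim to count, above the limit on 2 of 6 arrays.

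Ddx3x, a DEAD-box RNA helicase, was represented by a pair of spots with one deposited name, that of a growth factor inducible gene. They gave -0.61 ± 0.57 and -0.47 ± 0.49 (SD, n = 6 arrays), and in both cases the arrays with CRH RNA in Cy5 were the lower ones (-1.10 and -0.92 against -0.12 and -0.03). Foxred2, a flavoprotein of protein degradation in the endoplasmic reticulum (ER), gave -0.60 ± 0.43 (SD, n = 6 arrays). The other 3 lower spots carry only clone or tag names and stood between -0.60 and -0.59.

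The promoters of 4 of these genes are shown because they hold letters of the cAMP response element, the site of CREB, on which CRH signalling converges. They run from 250 bases before to 50 bases after the start of the gene, are given 5′ to 3′ on the gene's strand, and come from RefSeq on GRCm38.p6. Capitals mark the element TGACGTCA or its 5-letter core TGACG, on either strand.
Pex13, chr11:23665834-23666133, minus strand: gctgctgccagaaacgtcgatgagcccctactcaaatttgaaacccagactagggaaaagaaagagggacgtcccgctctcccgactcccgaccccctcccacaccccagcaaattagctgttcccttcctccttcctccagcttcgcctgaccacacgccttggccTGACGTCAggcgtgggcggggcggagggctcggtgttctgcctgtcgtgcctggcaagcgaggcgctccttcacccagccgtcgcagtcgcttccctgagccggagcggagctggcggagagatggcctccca
Scaf1, chr7:45016200-45016499, minus strand: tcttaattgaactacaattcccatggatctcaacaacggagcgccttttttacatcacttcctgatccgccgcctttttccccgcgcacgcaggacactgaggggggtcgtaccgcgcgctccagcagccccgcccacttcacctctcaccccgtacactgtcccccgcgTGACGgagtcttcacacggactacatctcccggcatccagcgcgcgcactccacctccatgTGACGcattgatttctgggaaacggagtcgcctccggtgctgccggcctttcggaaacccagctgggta
Malat1, chr19:5802623-5802922, minus strand: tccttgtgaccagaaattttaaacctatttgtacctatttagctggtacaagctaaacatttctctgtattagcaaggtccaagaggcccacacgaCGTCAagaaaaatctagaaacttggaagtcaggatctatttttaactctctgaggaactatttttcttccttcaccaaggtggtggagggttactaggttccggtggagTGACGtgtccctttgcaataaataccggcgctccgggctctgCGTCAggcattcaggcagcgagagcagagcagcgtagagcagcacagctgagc
Hmgcs1, chr13:119690101-119690400, plus strand: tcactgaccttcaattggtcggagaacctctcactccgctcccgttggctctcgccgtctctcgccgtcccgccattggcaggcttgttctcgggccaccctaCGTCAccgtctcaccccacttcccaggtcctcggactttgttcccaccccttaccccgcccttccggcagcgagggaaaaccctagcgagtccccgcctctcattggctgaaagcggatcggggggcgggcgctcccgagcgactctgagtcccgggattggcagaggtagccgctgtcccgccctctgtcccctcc

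Pex13 was the only one of the 13 higher and 7 lower genes with the whole element, which starts 83 bases before the gene. The element occurs in 588 of 32851 promoters, or 1.79%, and in 4.13% of the 3241 measured genes with a promoter in the table. Its core was found in 7 of 13 higher genes and 4 of 7 lower genes, beside 20.8% of all promoters and 37.9% of measured genes. The core is part of the whole element, so both searches count Pex13. The sterol regulatory element was searched as a single fixed string, with no mismatch allowed. That string was in none of the higher and lower genes, nor in the 16 measured cholesterol genes with a promoter (0.0913% of all promoters). The Hmgcs1 promoter printed above holds a stretch that differs from the string only in its first letter. Such variants were not searched, so the values do not show that Hmgcs1 or the other cholesterol genes lack the element. The Nur77 element AAAGGTCA was likewise in none of the higher and lower genes (1.51% of all promoters). The AP-1 site TGANTCA was in Fbp2 and in 1 of the Tmod2 promoters (7.81% of all promoters). These are matches of letters within a short window and say nothing of binding.

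The 11 genes that the study picked for how well they told the time points apart, partly on these arrays, were followed as a list. Of their 16 measured spots, 3 were past the size rule as higher (Nf2, Pex13 and Cd3e) and 2 as lower (Hmgcs1 and Malat1). All spots together gave 0.181%, but the genes were chosen on these samples and the count is no independent evidence. Acsl4, an acyl-CoA ligase that prefers arachidonate, came next. Its arrays ran from -0.91 to -0.28, all below 0, with a mean of -0.56 ± 0.23 (SD, n = 6 arrays) after 0.28, -0.19, 0.44 and 0.30. A dimmer second spot of Acsl4 gave 0.31 ± 0.28 (SD, n = 6 arrays) without removal of dim spots, the opposite sign.

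The remaining candidates were smaller at 24 h. Fosl2, an AP-1 subunit, was at 0.22 ± 0.25 and 0.18 ± 0.19 (SD, n = 6 arrays) on the spots the study assigns to it, after 1.32 and 0.89 at 1 h. Those spots bear other names in the files. A pair of dimmer spots named for Fosl2 gave 0.05 and -0.25 without removal of dim spots. Mat2a, which makes S-adenosylmethionine, gave -0.36, -0.33 and -0.16 on 3 spots, the last at the scanner limit on 4 arrays. A dimmer Mat2a spot gave 0.07 ± 0.47 (SD, n = 6 arrays) without removal of dim spots, above 0 on 2 of 6 arrays. Pebp1, a phosphatidylethanolamine binding protein, stood at 0.48 ± 0.48 (SD, n = 6 arrays) on a spot filed as an interleukin, and at 0.29 ± 0.32 on the spot that bears its own name, which was too dim for the main set. Loxl3, a lysyl oxidase of the matrix, gave -0.18 ± 0.40 (SD, n = 6 arrays). Crem, the cAMP-responsive modulator, gave 0.07 ± 0.48 (SD, n = 6 arrays) on the spot measured here and ranged from -0.61 to 0.64, on both sides of 0. The Crem spot that the study picked is another one, too dim for the main set. Without removal of dim spots it stood at 0.16 ± 0.46 (SD, n = 6 arrays), above 0 on 5 of 6 arrays.

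**Figure D3:**
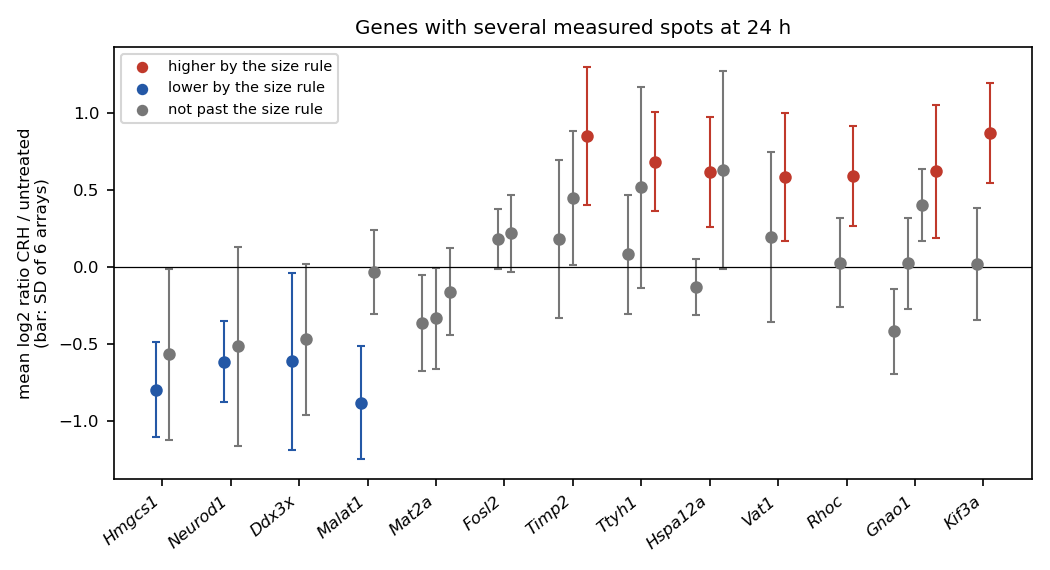
Mean log2 ratio (CRH over untreated) at 24 h with the SD of 6 arrays, for genes named in the text with several measured spots, red and blue marking spots past the size rule. The spots of Gnao1 and of Hspa12a spread over both signs, and those of every other gene shown share a sign. For Kif3a, Malat1 and Rhoc the smaller value is only 0.02, -0.03 and 0.03.

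Repeat spots of a gene were compared for the whole array. Of 739 genes with exactly 2 measured spots, 411 had means of the same sign at 24 h. Unrelated spots would share a sign in about as many genes as not, and the count was only a little above that. Of all 917 genes with 2 or more measured spots, 462 had every spot on one side of 0. Repeat spots thus agreed weakly in sign. Across the 739 genes the 2 means correlated at r of 0.20, as a description, since the spots share extracts and slides.

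Whether the ratio at 24 h differed from that at the other time points was tested with the 5 time points as units. The 24 h arm is then 1 average, and the error of the test is the variation among the other 4 times, so that the test holds no spread between cultures. limma on the 5 averages, 24 h minus the mean of the other 4, gave 0 spots in either direction at an adjusted p under 0.05, and 488 spots (3.4%) at an unadjusted p under 0.05. The lowest adjusted p was 0.077, for the first Kif3a spot, with a difference of 1.11 ± 0.15 (SE). Nf2 followed with 1.26 ± 0.20 (SE) and an adjusted p of 0.202. For Pex13 the difference was 0.97 ± 0.18 (SE) with an adjusted p of 0.468, and for Hmgcs1 it was -0.99 ± 0.20 (SE) with an adjusted p of 0.63. With the 1 h arrays left out, this limma test called Kif3a (adjusted p 0.0088), Nf2 (0.0263) and Hmgcs1 (0.0346), and with the 3, 6 or 12 h arrays left out it called 0 spots. With 24 h replicate 5 or 6 left out, it called Kif3a alone, at adjusted p values of 0.0362 and 0.0448.

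Over all spots the size of the ratios at 24 h lay within the range of the earlier times. The median absolute mean was 0.102 at 24 h, after 0.115, 0.099, 0.080 and 0.102 at 1, 3, 6 and 12 h. Of the 26 spots past the size rule, 24 had a larger absolute ratio at 24 h than at any earlier time. The rule chose them for their size at 24 h, so this and the counts that follow describe the spots and support nothing. In 11 of them no earlier value reached 50% of it. Against 12 h, the 24 h value moved further in its own direction for 25 of the 26. The 24 h arrays were quantified on the day that also holds 12 h replicates 5 and 6. Within that day, with CRH RNA in Cy5 throughout (3 arrays against 2), 23 of 26 moved that way, with 1.30 for Nf2, 0.80 for Kif3a and -1.07 for Hmgcs1. Fbp2, Ttyh1 and the unnamed tag high from 3 h on went the other way, by -0.20, -0.09 and -0.20.

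**Figure D4:**
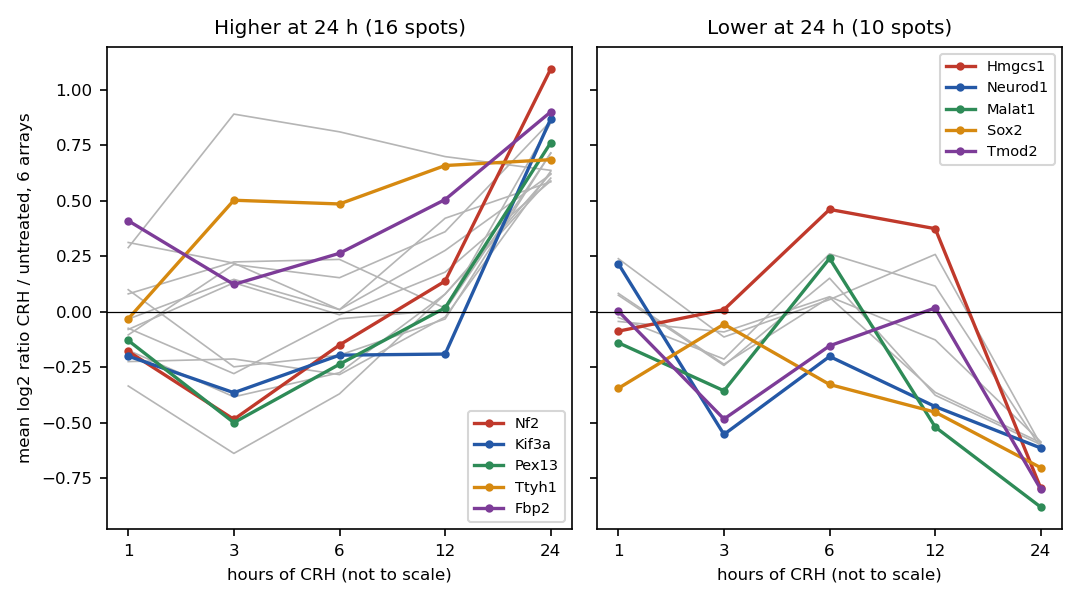
Mean log2 ratio (CRH over untreated, 6 arrays) at 1, 3, 6, 12 and 24 h for the 16 spots higher and the 10 spots lower at 24 h, with 5 of each in colour. Nf2, Kif3a and Pex13 lie below 0 at 3 h and high at 24 h, Ttyh1 is high from 3 h on, and Hmgcs1 crosses from 0.37 at 12 h to -0.80.

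Whether the 2 extracts of 24 h differed by more than the hybridisations did was tested with limma on the 6 arrays with a term for the dye. This compares 2 tubes of RNA and not the conditions. At an adjusted p under 0.05 it gave 14 spots higher (0.0974%) and 13 lower (0.0905%), and 2175 spots (15.1%) at an unadjusted p under 0.05. Of these 27 spots 19 were past the size rule, which is 70.4% of them and 73.1% of the 26. Nf2 had the lowest adjusted p (0.00324), then Kif3a (0.00804), Hmgcs1 (0.0174), and Malat1, Pex13 and Scaf1 (each 0.0235).

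The 8 spots that this test alone called included the second spots of Hmgcs1 and of Neurod1 (each adjusted p 0.0434 by limma) and Acsl4 (0.0434). The others were Bag1, a co-chaperone that inhibits cell death, at 0.54, Wdr11, a WD-repeat protein, at 0.58, Kif5b, the heavy chain of conventional kinesin, at -0.58, Rif1, a regulator of replication timing, at -0.62, and an unnamed tag at 0.55. Of the spots past the size rule, 7 missed the test, among them Timp2 and Ttyh1 (each adjusted p 0.054 by limma), Rhoc (0.087) and Vat1 (0.0821). The calls depend on the full set of arrays. With any single array left out the test gave 1 or 2 higher and 0 or 1 lower spots.

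The medians of lists of related genes were small, and several of those near 0 changed sign under another processing. Each list is given by the median over its genes of the mean ratio at 24 h, where the spots of a gene were averaged. All 3998 genes with a symbol had a median of -0.0081, and 47.5% of them were above 0. Of 28 lists, the medians of 2 were above 0 on all 6 arrays and that of 1 was below 0 on all 6. The array medians over all genes with a symbol were above 0 on all 6 as well, though barely, from 9e-04 to 0.011.

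Cholesterol synthesis was the list below 0 on all 6 arrays. Of 21 measured genes 13 were below 0, the median was -0.08, and the array medians ran from -0.17 to -0.07. At 1, 3, 6 and 12 h the same list had stood at -0.11, 0.07, 0.16 and 0.12, so that it was below 0 at 1 h too. Of its 28 spots 1 was past the size rule (background 0.181%), that of Hmgcs1. Stard4, a cholesterol carrier, gave -0.36 and 0.30 on its 2 spots, of opposite sign. Tm7sf2, a sterol reductase, stood at 0.36 ± 0.37 (SD, n = 6 arrays), so the members were not of one sign.

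The other lipid lists stood closer to 0. Fatty acid metabolism had a median of -0.05 with 14 of 24 genes below 0, led by Acsl4. The 6 spots of Scd2, a stearoyl-CoA desaturase, averaged -0.14 and those of fatty acid synthase Fasn 0.28. The Fasn spot with the larger mean, at 0.28 ± 0.65 (SD, n = 6 arrays), was above 0 on only 2 of 6 arrays. Peroxisome biogenesis had a median of -0.03, while its array medians ran from -0.04 to 0.25. Pex13 was its only spot of 15 past the rule, and Pex14, its partner in the docking complex, gave -0.30 ± 0.22 (SD, n = 6 arrays), below 0 on 6 of 6 arrays. Abcd4, a transporter of the peroxisomal ABC family, gave 0.37 ± 0.23 (SD, n = 6 arrays), above 0 on 6 of 6 arrays. Pex13 and Pex14 thus lay on opposite sides of 0.

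Glycolysis and the cytosolic ribosome were the lists above 0 on all 6 arrays. Of 22 genes of glycolysis and hypoxia 17 were above 0, the median was 0.15, and the array medians ran from 0.02 to 0.19. Gpi1 gave 0.41 ± 0.45, Tpi1 0.35 ± 0.29 and the larger of the 2 Gapdh spots 0.36 ± 0.25 (SD, n = 6 arrays). Of 67 ribosomal protein genes 54 were above 0, the median was 0.11, and the arrays ran from 0.03 to 0.20. Rpl41 stood at 0.43 and one of the 2 spots of Rpl21 at 0.41. No spot of either list was past the size rule. Both lists had stood at -0.14 at 1 h and at 0.16 and 0.18 at 3 h.

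The unfolded protein response had a median of 0.16, with 13 of 17 genes above 0. Its array medians ran from -0.0035 to 0.21. Chac1, a glutathione-degrading enzyme of that response, gave 0.37 ± 0.20 (SD, n = 6 arrays), above 0 on 6 of 6 arrays, and Creld2, an ER chaperone, gave 0.35 ± 0.28. Manf, a secreted ER stress factor, stood at -0.37 ± 0.48 (SD, n = 6 arrays). ER and Golgi transport had a median of 0.04 with 30 of 50 genes above 0. Sec31a, a coat protein of vesicles that leave the ER, came nearest to the size rule there, at 0.57 ± 0.50 (SD, n = 6 arrays) with arrays from 0.0043 to 1.22. Heat shock proteins and chaperones had a median of 0.02, the proteasome 0.04, and the mitochondrial ribosome and import 0.03. None of these lists had a spot past the rule. Psmd4, a ubiquitin receptor of the proteasome, gave 0.47, 0.31 and 0.06 on its 3 spots. The mitochondrial ribosomal protein Mrpl11 gave 0.41 ± 0.31 (SD, n = 6 arrays), above 0 on 6 of 6 arrays.

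Among the lists closest to the action of CRH, immediate early genes and corticotrope identity had the lowest medians of the 28 lists. The array medians of both lay on both sides of 0. Corticotrope identity and receptors had a median of -0.09 (0.006 with the deposited ratios), with 6 of 10 genes below 0 and Neurod1 the only spot past the rule. Tbx19, the T-box factor that defines corticotropes, was at -0.20 ± 0.36 (SD, n = 6 arrays). Secretory granules and exocytosis had a median of 0.05 with 17 of 23 genes above 0 and no spot past the rule. One spot of Syt4, a vesicle synaptotagmin, stood at 0.36 ± 0.26 (SD, n = 6 arrays), below its 0.80 at 12 h.

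cAMP signalling and its brakes had a median of -0.03 with no spot of 46 past the rule. Rgs4, which switches off G protein signalling, was below 0 on 6 of 6 arrays at -0.46 ± 0.26 (SD, n = 6 arrays) and at -0.74 to -0.28 at the other 4 times. Pde4b, a cAMP phosphodiesterase, gave 0.41 ± 0.33 (SD, n = 6 arrays) on one of its 2 spots. Adcy7, an adenylyl cyclase, gave 0.43 ± 0.57 (SD, n = 6 arrays), and Gnaq, the alpha subunit of Gq, averaged -0.22 over 3 spots.

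Immediate early genes had a median of -0.11, with 9 of 12 genes below 0 and none past the rule. The median was -0.0152 with no removal of dim spots and -0.0075 with the deposited ratios. Dusp1, a phosphatase that ends MAP kinase signals, ranged widely at -0.38 ± 0.78 (SD, n = 6 arrays), and had been at 0.41 at 1 h. Fosl1, a Fos relative, was below 0 on 6 of 6 arrays at -0.26 ± 0.19 (SD, n = 6 arrays). The array medians of the list ran from -0.20 to 0.07, on both sides of 0. The MAP kinase pathway had a median of 0.0045, led by Pebp1. The circadian clock had a median of -0.06, with Bhlhe40 at -0.36 ± 0.92 and Per1 at -0.28 ± 0.55 (SD, n = 6 arrays).

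Among growth-related lists, DNA replication and mitosis had a median of 0.0029 over 49 genes. Top2a, topoisomerase II of dividing cells, was above 0 on 6 of 6 arrays at 0.43 ± 0.16 (SD, n = 6 arrays), and had been at -0.25 at 1 h and 0.35 at 12 h. Cdk1, the mitotic kinase, was at 0.29 ± 0.22 (SD, n = 6 arrays). Tyms, which makes thymidylate for DNA, was at -0.43 ± 0.17 (SD, n = 6 arrays) on 1 of 3 spots, and the others gave -0.03 and -0.02. Cell cycle inhibitors and cell death had a median of 0.0065. On the merlin and Hippo list 8 genes were measured, and all but Nf2 (1.09) lay between -0.12 and 0.08 as genes, and the median was -0.03. Amotl2, a scaffold of that pathway, was the lowest of them, and radixin, Rdx, a relative of merlin, gave 0.12 and -0.09 on its 2 spots.

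Splicing factors had a median of -0.07 with 30 of 44 genes below 0. Besides the Malat1 spot, Srsf2, an SR splicing factor, was the lowest, with -0.54 ± 0.20 (SD, n = 6 arrays) on one spot and -0.48 as the mean of 2. It missed the size rule, and its adjusted p by limma on the 6 arrays was 0.054. One of the 2 spots of Hnrnpa2b1, an RNA-binding protein, gave -0.41 ± 0.21 (SD, n = 6 arrays). Methionine, polyamine and one-carbon metabolism had a median of -0.07, the respiratory chain -0.0012, ion channels -0.0072 and housekeeping genes 0.04.

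Lists of other cell types gave -0.05 for other pituitary lineages (4 genes measured, with Sox2 past the rule), -0.06 for fibroblasts and matrix (14 genes) and -0.04 for T cells and leukocytes (10 genes). On that last list all 3 arrays with CRH RNA in Cy5 had medians from 0.16 to 0.21 and the other 3 from -0.16 to -0.10. The median of a list can thus follow the dye on single arrays.

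**Figure D5:**
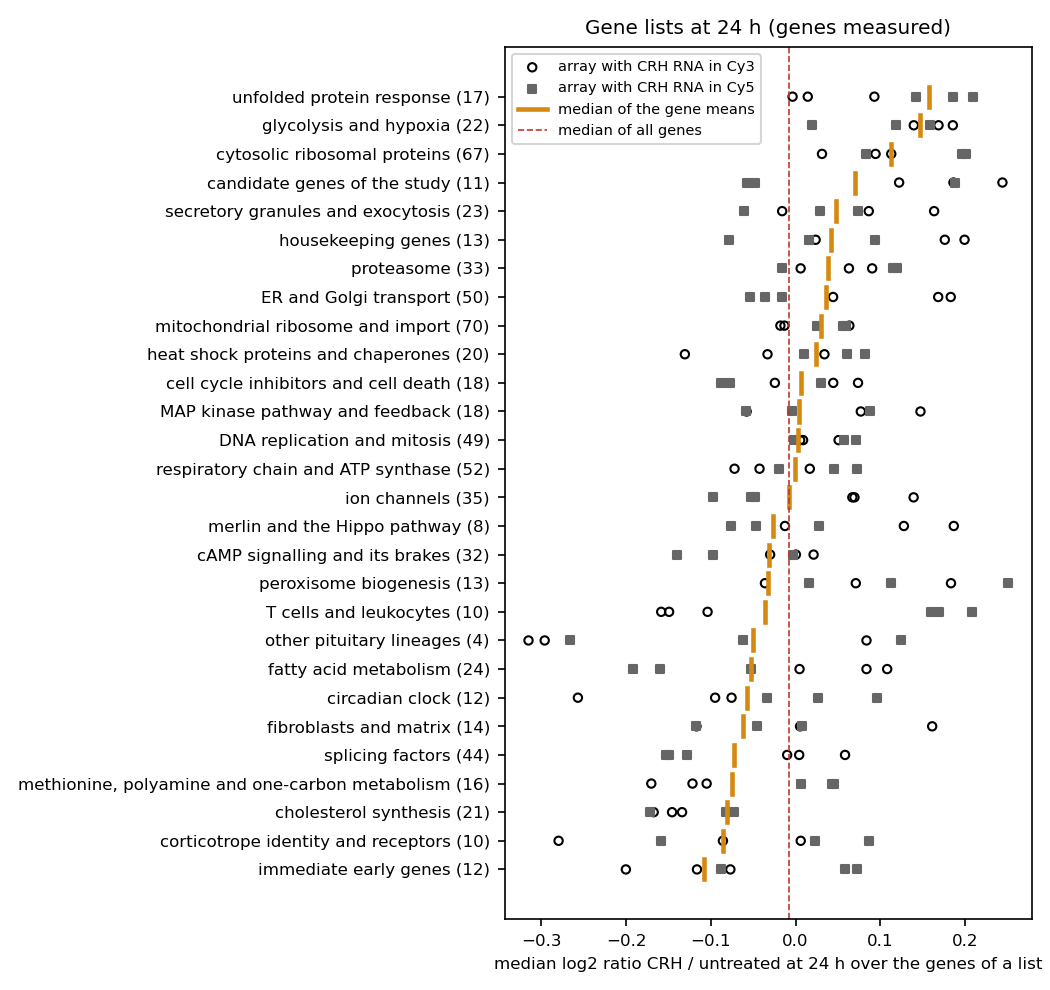
Median log2 ratio (CRH over untreated) at 24 h for 28 gene lists, with the median of the gene means as a bar, open circles for the 3 arrays with CRH RNA in Cy3 and squares for the 3 with it in Cy5. All bars lie between -0.11 and 0.16. The points of glycolysis and of ribosomal proteins are all above 0 and those of cholesterol synthesis all below.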

How the data were processed

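The authors scanned each array and deposited the intensity of every spot in both dyes, with nothing subtracted and nothing normalized. They also deposited log2 ratios of 12591 gene spots, made after removal of dim spots and loess in each print-tip block, and these served as an alternative. In 1 file of 3 h the first channel holds Cy5, which was taken into account.

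Empty and control spots were left out, and 14369 of 22818 gene spots lay above the lowest 10% of both channels on all 30 arrays. The log2 ratio was corrected by loess in each of 48 print-tip blocks (span 0.75, 4 iterations) and turned to CRH over untreated. On shared spots it correlated with the deposited ratios at r of at least 0.979. The median spot intensity of a channel at 24 h was 1190 to 2180. The number of arrays limits how precisely the pair of extracts is compared, and more arrays would not measure the spread between cultures. Spots at the scanner limit were kept.

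Symbols came from the study's own spot list for 97 spots, from the deposited name for 1089 and, through synonyms in RefSeq, for 6673. The study's symbol was used where it differed from another route (4 spots). Named were up to 12 highest and 12 lowest genes past the size rule, the 11 candidates, up to 4 members of each list and the cell type markers. Members and lists were chosen with earlier results of these data known. Tests used limma 3.58.1 in R 4.3.3 with Benjamini-Hochberg adjustment over all spots, after a check on simulated data. Other background corrections, dim-spot limits, loess fits and array subsets were tried. Some genes that the rule names are not reported here.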

Additional observations from a re-analysis of the deposited data

Results flagged for a closer look

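For each of the 25 spots named by rank or as a candidate and each of the 28 list medians, the highest and the lowest of the 6 arrays were compared with the nearest of the others. A gap past Dixon's limit was looked for, and chance gives one in about 1 group of 20. It was found in 2. Timp2 stood at 1.68 on array 6, against 0.41 to 0.86 on the other 5. Tmod2 stood at -0.29 on array 3, against -1.12 to -0.82 on the others.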

How the results depend on the processing

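The count of spots past the size rule (16 higher, 10 lower) rose to 44 and 21 with the 10th percentile subtracted and to 42 and 32 with no removal of dim spots. It fell to 10 and 6 with the lowest 25% removed, to 4 and 2 with 1.5-fold asked in each orientation and to 1 and 0 at 2-fold. With 1 array of 24 h left out it ranged from 12 (without replicate 1) to 26 (without replicate 4) higher and from 7 (without replicate 4) to 17 (without replicate 3) lower, and without replicate 5 it was 25 higher. The other settings stayed within 1.5 times. Of the 16 higher and 10 lower spots, 16 and 9 were still called with the 10th percentile subtracted, 15 and 7 with no removal of dim spots, and 14 and 7 with 1 loess curve per array. With the deposited ratios 9 of 11 and 7 of 9 were. No named mean changed sign where the size rule had called it. Ap1g1 moved to 1.67 and Tmod2 to -1.10 with the 10th percentile subtracted.

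The limma test on the 6 arrays (14 higher, 13 lower) gave 0 and 0 with the 10th percentile subtracted and with no removal of dim spots, 8 and 5 with normexp, 119 and 76 with the lowest 25% removed, 23 higher with 1 loess curve, 3 and 1 with the dim limit set on the 24 h arrays, 1 and 0 with no dye term and with robust, trended eBayes, and 1 to 2 higher and 0 to 1 lower with 1 array left out. The cause was not tested.

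The limma test of 24 h against the other times (0 and 0) gave 1 higher spot with robust, trended eBayes, 0 to 1 higher and 0 lower with 1 array of 24 h left out, and 2 higher and 1 lower without 1 h (0 and 0 without 3, 6 or 12 h). With the 30 arrays as units, which counts technical replicates as independent, it gave 27 higher and 30 lower with a dye term and 19 and 21 with the replicate block. Same-numbered arrays of different times did not deviate together (24 pairs, r from -0.0251 to 0.0259), so the numbers do not pair them. For the other results no paired analysis was possible because only 1 time point enters.

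Of list medians, merlin and the Hippo pathway moved to 0.0775 with no removal of dim spots, DNA replication and mitosis to 0.0392 with 1 loess curve, and other pituitary lineages to -0.72 with the deposited ratios. Medians of lists near 0 changed sign under a setting, among them cAMP signalling (0.0064), fatty acid metabolism (0.0017), the proteasome (-0.0019) and cell cycle inhibitors (-0.0278) with no removal of dim spots, heat shock proteins (-0.0304) and the respiratory chain (0.0074) with the deposited ratios, and the MAP kinase pathway (-0.007) and ion channels (0.0124) with 1 loess curve. The order of the list medians also changed with the setting. Glycolysis was above the unfolded protein response with no removal of dim spots (0.1436 and 0.1179), with 1 loess curve (0.1716 and 0.1232) and with the deposited ratios (0.1363 and 0.1093). The comparison with 12 h within 1 quantification day was added after seeing the data. The dye effect, the dim spots and the single pair of extracts limit what 24 h can show.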

Other observations

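Several spots came close to the size rule with the same sign on all 6 arrays. Chmp2a, a subunit of the ESCRT machinery that severs membranes, stood at 0.56 ± 0.41 (SD, n = 6 arrays). The spot named procollagen type IV alpha 1, of the basement membrane, stood at 0.56 ± 0.35. On the lower side, a spot named for the RNA-binding protein ELAV-like 2 gave -0.56 ± 0.35, and Pcdha4, a neuronal protocadherin, gave -0.55 ± 0.30. These were chosen by rank after their values were seen, and none of these 4 passed the limma test on the 6 arrays (adjusted p from 0.0602 to 0.109).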
